A study of Mus musculus with 4 samples.

Results

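T cell anergy is a lasting state of unresponsiveness that follows antigen receptor engagement without full costimulation, and 10 genes that encode ubiquitin ligases, ligase adaptors and diacylglycerol kinases known for their part in it were measured in mouse T cells. The genes were taken by symbol as Cbl, Cblb, Itch, Rnf128, Nedd4, Ndfip1, Ndfip2, Peli1, Dgka and Dgkz, and all 10 were found among the 50600 genes of the count tables. RNA was sequenced from T cells of C57BL/6NJ mice in 1 group of 4 biological replicates. The file headers name the alignments as Th0, that is cultured without polarisation to a helper subset, activated, sorted and 72 h. No other treatment is given, sex was not collected and age is unknown. The libraries carry the same donor entry and no label says whether the animals or cultures were separate, and each spread or p-value below therefore describes these 4 libraries alone. With 1 group, the genes were compared with each other, with their own families and between libraries.

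A ubiquitin ligase attaches ubiquitin to a chosen protein, which can send that protein to the proteasome or the lysosome. In T cells, Cbl-b, Itch and GRAIL (encoded by Rnf128) mark components of antigen receptor signalling in this way and raise the threshold for activation. Diacylglycerol kinases act on the same pathway through a lipid: they convert diacylglycerol, which activates the Ras exchange factor RasGRP1 and protein kinase C theta, to phosphatidic acid.

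Total counts ranged from 34978213 to 118937382 per library. At a count of 0, up to 3 counts remained possible, which corresponded to 0.0252 to 0.0858 CPM (each count scaled by its library's total), and this limit covers counting error only. Levels are given as TPM, in which counts are divided by exonic length and then scaled to the same sum in every library. Across the 4 libraries, 12535 of all genes (24.8%) were at or above 1 TPM throughout, as were 10868 of 21764 protein-coding genes (49.9%). The T cell markers Cd3e, Cd3g, Cd4 and Trac all passed this level, with a summed TPM of 3253 to 3471, and Cd4 averaged 975.7 TPM against 0.267 TPM for Cd8a. The macrophage marker Lyz2, the dendritic cell marker Itgax, the granulocyte marker S100a8 and the epithelial marker Krt8 were at 0 counts in every library, while the CD8 chain gene Cd8b1 stood at 17.5 to 29.2 TPM and the endothelial and leukocyte gene Pecam1 at 19.2 to 22.8 TPM. Of the other markers, the macrophage gene Adgre1 stood at 1.10 to 1.80 TPM and the epithelial gene Epcam at 3.17 to 3.47 TPM, and the B cell gene Cd79a ran from 0.424 to 1.82 TPM. Xist, an RNA expressed from an inactive X chromosome, stood at 278.4 TPM in replicate 1 and 315.9 TPM in replicate 2. It stood at 1.25 TPM in replicate 3 and 0.586 TPM in replicate 4, so by Xist alone the libraries stood apart in pairs. Each spread between libraries below runs over both of these Xist pairs, and what separates them was not tested. Xist was named after its values were seen.

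In bulk RNA, fewer cells with a transcript and less of it per cell cannot be told apart. Of the 10 genes, 9 reached a TPM of 1 or more in all 4 libraries, and the exception was Rnf128. The order of the mean levels was Ndfip1, Dgkz, Dgka, Cblb, Cbl, Peli1, Itch, Ndfip2, Nedd4 and Rnf128, and the highest mean was 827.8 times the lowest. Each of the 9 pairs of neighbours in this order kept its direction in 4 of 4 libraries. By CPM, Ndfip1 and Dgkz changed order. Peli1 was then above Itch in 2 of 4 libraries, with a mean difference of -0.02 log2. The median protein-coding gene among those at a TPM of 1 or more in all libraries had a mean of 31.9 TPM, so Ndfip1, both kinases, Cblb and Cbl lay above it and the other 5 genes below it. Peli1, at 31.3 ± 0.872 TPM (SD, n = 4), was close to this median, and these places rest on the deposited lengths.

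**Figure D1:**
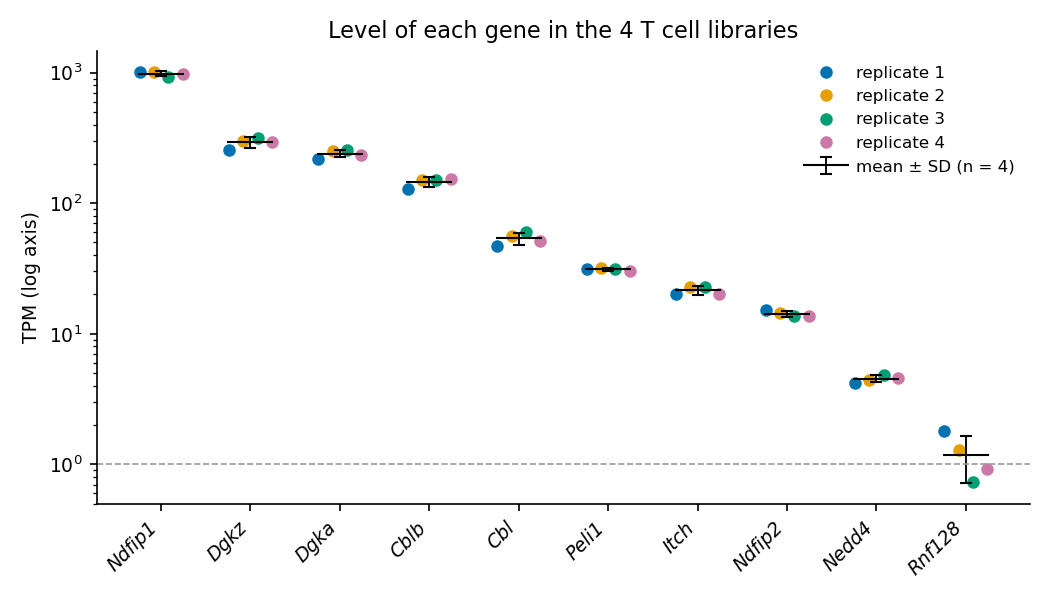
TPM on a log axis for each of the 10 genes, with 1 point per library, a horizontal line for the mean, whiskers for the SD (n = 4) and a dashed line at 1 TPM, genes ordered by mean. The points of most genes lie close together, from a mean of 979.9 TPM for Ndfip1 down to 4.53 TPM for Nedd4, while the 4 points of Rnf128 spread from 0.735 to 1.79 TPM.

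Cblb was the more abundant of the Cbl ligases. It encodes Cbl-b, a RING-type ligase whose loss in mice lets T cells respond without CD28 costimulation. Cblb (ENSMUSG00000022637.10, chromosome 16, 52031549 to 52208047, plus strand, mm10, 18 merged exons) had 128.3, 150.6, 151.2 and 153.2 TPM in replicates 1 to 4, a mean of 145.8 ± 11.7 TPM (SD, n = 4). Replicate 1 was lowest and the other 3 were nearly equal. This mean was higher than that of 94.1% of protein-coding genes. Its relative Cbl, which encodes the ligase c-Cbl that is best known for limiting receptor signalling in thymocytes, lies on chromosome 9, 44142976 to 44234049, minus strand (ENSMUSG00000034342.9, 20 merged exons). Cbl had 47.3, 55.7, 60.0 and 51.6 TPM, a mean of 53.6 ± 5.46 TPM (SD, n = 4), with replicate 1 again lowest.

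Within each library Cblb exceeded Cbl, by 1.44 ± 0.10 on the scale of log2(TPM + 0.1) (SD, n = 4; 4 of 4 libraries; exact two-sided sign-flip permutation test, 2 of 16 sign assignments as extreme, p = 0.13, and 0.13 after adjustment over 12 contrasts). That p is the smallest the test can give with 4 libraries, and all 12 contrasts between genes had it, so none could pass 0.05. Of the summed TPM of the 4 genes of the Cbl family, Cblb held 65.3 ± 1.59% and Cbl 24.0 ± 1.07% (SD, n = 4). Cbll1, a more distant relative also known as Hakai, held 10.7%, and Cblc, which is known mainly from epithelia, held 0.057% on 1 to 15 counts per library.

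Among the HECT-type ligases, Itch was present at a moderate level and Nedd4 at a low one. Itch, whose loss causes the itchy mouse and which targets JunB in T cells, lies on chromosome 2, 155133509 to 155226855, plus strand (ENSMUSG00000027598.16, 27 merged exons). It had 20.1, 22.7, 23.0 and 20.2 TPM, a mean of 21.5 ± 1.58 TPM (SD, n = 4), so replicates 1 and 4 lay together below replicates 2 and 3. Nedd4, the founding member of the family, lies on chromosome 9, 72662346 to 72749852, plus strand (ENSMUSG00000032216.14, 30 merged exons). It had 4.19, 4.46, 4.86 and 4.60 TPM, a mean of 4.53 ± 0.278 TPM (SD, n = 4), and replicate 1 was lowest.

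Itch exceeded Nedd4 by 2.22 ± 0.09 log2 (SD, n = 4; 4 of 4 libraries; exact sign-flip permutation p = 0.13). It was not the most abundant member of its family. Of the summed TPM of the 9 Nedd4-type ligases, Wwp2 held 23.7%, Itch 19.2 ± 0.679%, Wwp1 18.3%, Smurf1 16.2%, Smurf2 13.9% and Nedd4 4.05 ± 0.178% (SD, n = 4). Wwp2 averaged 26.5 ± 2.45 TPM and Wwp1 20.6 ± 2.12 TPM (SD, n = 4). Nedd4l and Hecw2 held 3.43% and 1.12%, and Hecw1 was at 0 counts in all libraries. With the deposited lengths Itch was thus 1 of 5 members of this family at between 13.9% and 23.7%, whereas a single gene held most of the Cbl family. By CPM Wwp2 held 26.5% and Itch 23.5%, and Wwp1, Smurf1 and Smurf2 10.8% to 14.9%. Scaled by the longest protein-coding transcript, Wwp2 held 32.3% and Itch 23.3%, and Wwp1, Smurf1 and Smurf2 10.8% to 12.6%.

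Cblb exceeded Itch by 2.76 ± 0.11 log2 (SD, n = 4; 4 of 4 libraries; exact sign-flip permutation p = 0.13). This difference was 1.81 log2 when levels were scaled by the longest protein-coding transcript of GENCODE M21; the merged exons of Itch cover 9709 bases and that transcript 5309 bases.

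The adaptors Ndfip1 and Ndfip2 are membrane proteins that bind the WW domains of Nedd4-type ligases and relieve their autoinhibition, and Ndfip1 is required for Itch to act on JunB in mouse T cells. Ndfip1 had the highest TPM of the 10 genes. Without division by length it averaged 283.9 CPM, after Dgkz at 569.2, Dgka at 354.5 and Cblb at 286.7 CPM, and it was below Dgkz in 4 of 4 libraries. In replicate 1 Ndfip1 was above Cblb, at 302.6 against 261.8 CPM, and in the other libraries it was below. Ndfip1 lies on chromosome 18, 38418975 to 38464399, plus strand (ENSMUSG00000024425.3, 8 merged exons). Ndfip1 had 1008, 1017, 926.2 and 968.7 TPM, a mean of 979.9 ± 41.5 TPM (SD, n = 4), which was higher than that of 99.6% of protein-coding genes. The libraries differed by at most 1.10-fold. Ndfip2 lies on chromosome 14, 105258573 to 105309298, plus strand (ENSMUSG00000053253.16, 5 merged exons). It had 15.1, 14.3, 13.7 and 13.6 TPM, a mean of 14.2 ± 0.691 TPM (SD, n = 4), with replicate 1 highest, unlike the Cbl ligases.

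The size of the gap between the adaptors depended on gene length. Ndfip1 exceeded Ndfip2 by 6.10 ± 0.05 log2 (SD, n = 4; 4 of 4 libraries; exact sign-flip permutation p = 0.13) with the deposited exonic lengths, which are 930 bases for Ndfip1 and 11553 bases for Ndfip2. The longest coding transcripts are 1796 and 2532 bases, and with them Ndfip1 averaged 370.3 TPM and Ndfip2 47.2 TPM. The difference was then 2.97 log2, again in 4 of 4 libraries. The counts were still those over the deposited exons, so they do not match these lengths. A count over 930 bases was divided by 1796, and a count over 11553 bases by 2532. This scaling can therefore understate Ndfip1 and overstate Ndfip2. Ndfip1 remained the highest of the 10 genes, and Ndfip2 moved from the eighth to the fifth place, above Cbl, Peli1 and Itch. Itch minus Ndfip2 then changed sign, from 0.60 to -0.72 log2, and Ndfip2 was the higher in 4 of 4 libraries. Cbl exceeded Peli1 by 0.07 log2 with these lengths, in 3 of 4 libraries, so the order of those neighbours was no longer uniform.

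**Figure D2:**
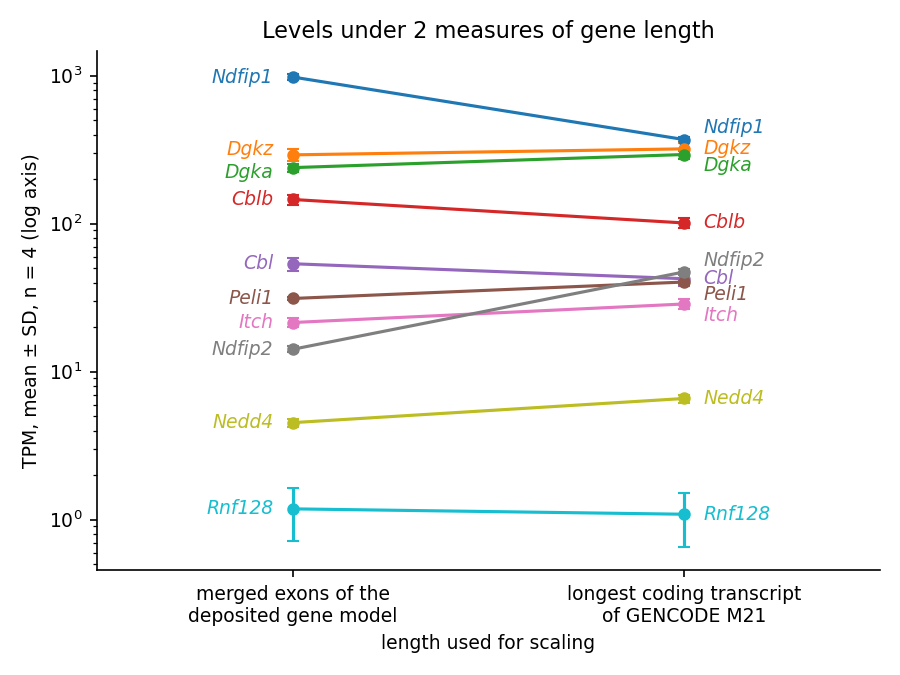
Mean TPM (± SD, n = 4, log axis) of each gene, on the left with the merged exons of the deposited gene model as length and on the right with the longest protein-coding transcript of GENCODE M21. The line of Ndfip2 climbs from 14.2 to 47.2 TPM and crosses those of Itch, Peli1 and Cbl, and that of Ndfip1 drops from 979.9 to 370.3 TPM.

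Ndfip1 held 87.6 ± 1.4% and Ndfip2 1.27 ± 0.054% of the summed TPM of 6 adaptors (SD, n = 4), and 67.1% and 8.56% with the transcript lengths. Among the arrestin-domain adaptors, which bind the same ligases through PY motifs, Arrdc1 averaged 97.5 ± 10.5 TPM and Arrdc2 16.7 ± 2.90 TPM (SD, n = 4). Ndfip1 exceeded Itch by 5.51 ± 0.14 log2 (SD, n = 4; 4 of 4 libraries; exact sign-flip permutation p = 0.13), and by 3.69 log2 with the transcript lengths.

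Rnf128 was the lowest of the 10 genes and the most uneven between libraries. It encodes GRAIL, a transmembrane RING ligase of endosomes that was described in anergic CD4 T cells and whose targets include CD40 ligand. Rnf128 lies on chromosome X, 139563316 to 139673145, plus strand (ENSMUSG00000031438.11, 9 merged exons). It had 1.79, 1.29, 0.735 and 0.919 TPM, a mean of 1.18 ± 0.466 TPM (SD, n = 4), so replicates 1 and 2 were above a TPM of 1 and replicates 3 and 4 below it. These values rest on 70, 163, 33 and 94 counts. As CPM they were 2.00 (exact Poisson 95% interval 1.56 to 2.53), 1.37 (1.17 to 1.60), 0.781 (0.537 to 1.10) and 0.986 (0.797 to 1.21), and the interval of replicate 1 overlapped that of replicate 2 but not those of replicates 3 and 4.

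After TMM scaling the highest and lowest library of Rnf128 differed by 2.55-fold, but the spread did not pass the test against genes of like abundance (edgeR goodness of fit, adjusted p = 0.9999). With 1 common dispersion for all genes in place of the abundance trend, the adjusted p was 0.0184, and 955 genes were then called in place of 66 of 14269 (0.463%). The 2 libraries with the most Rnf128 were those with Xist at 278.4 and 315.9 TPM. The part of this difference between libraries in the spread of Rnf128 was not tested.

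**Figure D3:**
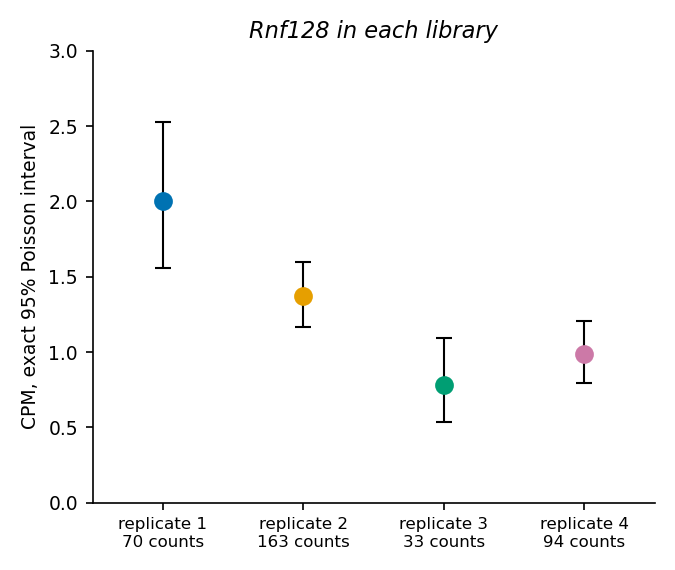
Rnf128 in each library, in CPM with exact Poisson 95% intervals and the count below each point. Replicate 1, at 2.00 CPM, lies above the intervals of replicates 3 and 4, at 0.781 and 0.986 CPM.

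Rnf128 held 0.701 ± 0.324% (SD, n = 4) of the summed TPM of 12 GRAIL-type ligases, which share a protease-associated domain and a RING. Rnf150, the next lowest detected, held 0.793%, and Rnf128 was above it in replicates 1 and 2 and below it in replicates 3 and 4. With the deposited lengths Rnf215 and Rnf167 led the family with 28.7% and 25.9%, and with the transcript lengths Rnf167 led with 32.5% before Rnf215 with 22.2%. By CPM Rnf167 led with 25.6%, before Rnf13 with 18.9% and Rnf215 with 17.9%. With the deposited lengths Rnf215 and Rnf167 stood at 49.5 ± 5.21 and 44.8 ± 5.57 TPM (SD, n = 4). Rnf133, Rnf148 and Znrf4 were at 0 counts in every library.

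Itch exceeded Rnf128 by 4.14 ± 0.57 log2, and Cblb exceeded it by 6.89 ± 0.62 log2 (SD, n = 4; 4 of 4 libraries in both; exact sign-flip permutation p = 0.13 in both). The SD of these differences was wider than that of Cblb minus Itch, at 0.11 log2. Of the 3 ligases most often named in anergy, Cblb was therefore highest, Itch intermediate and Rnf128 lowest in each library.

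Peli1 encodes Pellino 1, a ligase that marks c-Rel in T cells and restrains their activation in mice. It lies on chromosome 11, 21091291 to 21150323, plus strand (ENSMUSG00000020134.13, 7 merged exons). Peli1 had 31.3, 32.1, 31.5 and 30.0 TPM, a mean of 31.3 ± 0.872 TPM (SD, n = 4). These 4 values lay within 1.07-fold of each other, the narrowest range of the 10 genes in TPM. In CPM after TMM scaling, the ranges of Dgka and Nedd4 were narrower than that of Peli1. Peli1 made up 94.8 ± 1.73% of the summed TPM of the 3 Pellino genes (SD, n = 4). Peli3 averaged 1.45 ± 0.647 TPM and Peli2 0.269 ± 0.111 TPM (SD, n = 4), the second on 12 to 71 counts per library. Peli1 exceeded Peli2 by 6.46 ± 0.46 log2 (SD, n = 4; 4 of 4 libraries; exact sign-flip permutation p = 0.13), and by 7.14 log2 with the transcript lengths. Against Cblb it was lower by the same test in 4 of 4 libraries, with a difference of -2.22 ± 0.13 log2 (SD, n = 4), and of -1.32 log2 with the transcript lengths.

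The 2 kinases came next after Ndfip1 in TPM, and above it in CPM. Dgkz encodes the zeta isoform, which carries a nuclear localisation signal and ankyrin repeats, and lies on chromosome 2, 91932824 to 91975864, minus strand (ENSMUSG00000040479.11, 34 merged exons). It had 254.5, 301.8, 315.4 and 296.3 TPM, a mean of 292.0 ± 26.2 TPM (SD, n = 4), higher than that of 97.5% of protein-coding genes. Dgka encodes the calcium-regulated alpha isoform and lies on chromosome 10, 128720134 to 128744855, minus strand (ENSMUSG00000025357.8, 22 merged exons). It had 219.5, 248.8, 253.7 and 235.6 TPM, a mean of 239.4 ± 15.3 TPM (SD, n = 4). In both genes replicate 1 was lowest and replicate 3 highest.

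Dgkz exceeded Dgka by 0.28 ± 0.05 log2 (SD, n = 4; 4 of 4 libraries; exact sign-flip permutation p = 0.13), and by 0.12 log2 with the transcript lengths, still in 4 of 4 libraries. On the TPM scale this was the smallest of the 12 contrasts; by CPM, without division by length, it was 0.68 log2, and Dgka minus Cblb was the smallest at 0.31 log2. Of the summed TPM of 10 diacylglycerol kinases, Dgkz held 42.5 ± 0.876%, Dgka 34.9 ± 0.658% and both together 77.3 ± 0.664% (SD, n = 4). Dgkd, the delta isoform, came next with 16.2%, at 111.3 ± 11.6 TPM (SD, n = 4), and Dgkq followed at 18.1 ± 1.61 TPM. Dgkb was at 0 counts in all libraries. Dgka exceeded Dgkd by 1.11 ± 0.09 log2 and Cblb by 0.72 ± 0.07 log2 (SD, n = 4; 4 of 4 libraries in both; exact sign-flip permutation p = 0.13 in both), and with the transcript lengths these differences were 1.59 and 1.54 log2.

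**Figure D4:**
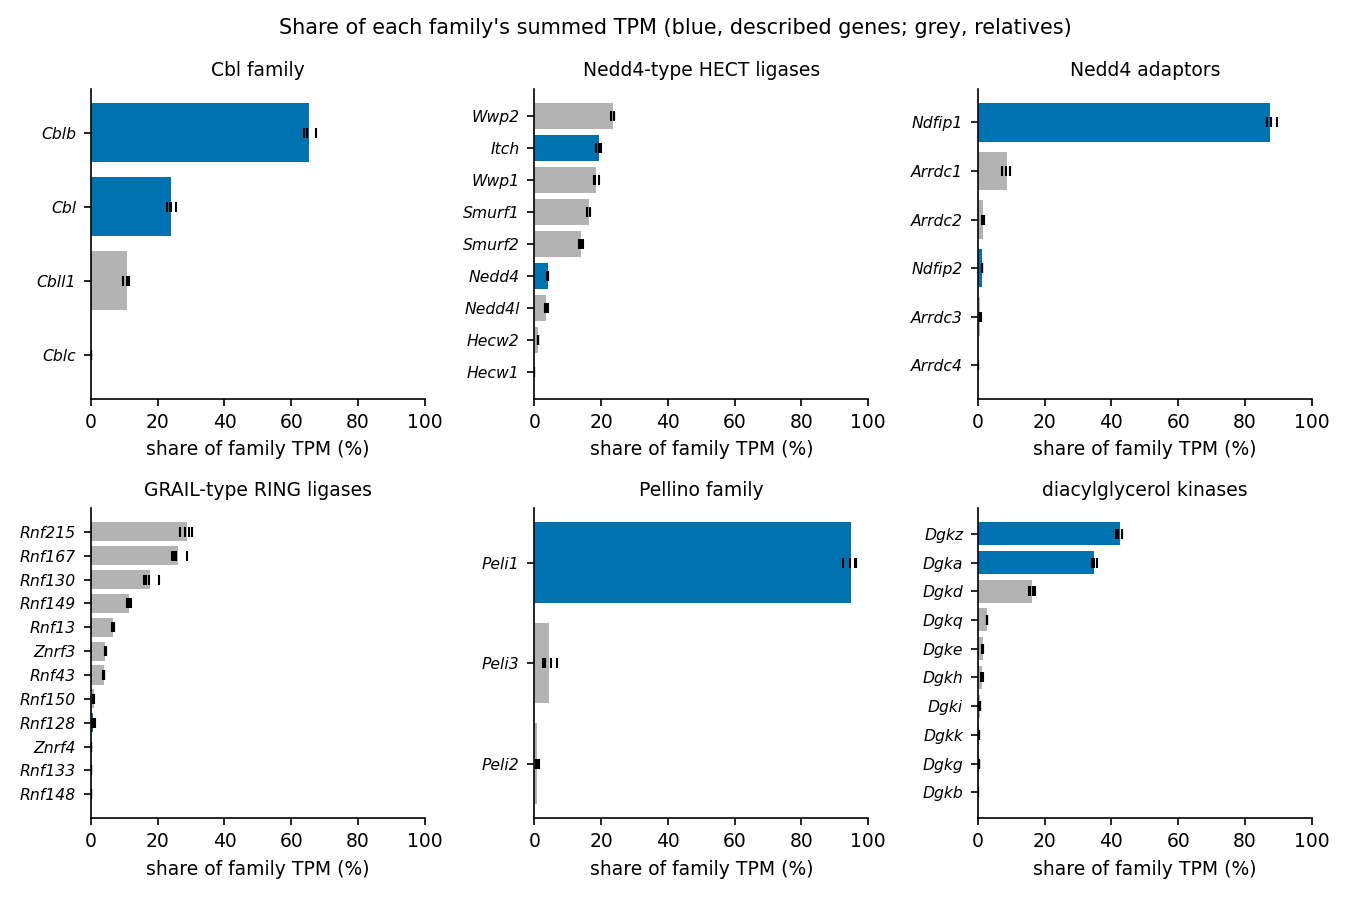
Share of each family's summed TPM held by each gene, with bars for the mean over 4 libraries and ticks for single libraries, for the Cbl, Nedd4-type, adaptor, GRAIL-type, Pellino and diacylglycerol kinase families. Peli1, Ndfip1 and Cblb held 94.8%, 87.6% and 65.3% of their families, the kinases Dgkz and Dgka together 77.3%, Itch 19.2% and Rnf128 0.701%.

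Between libraries, most of the 10 genes varied little. All 10 passed the filter on low counts, and 0 were called more variable than genes of like abundance (edgeR goodness of fit with Benjamini-Hochberg adjustment at 0.05), with 0 also at an unadjusted p under 0.05. Of all 14269 genes tested, 66 were called, which is 0.463%, and 812 had an unadjusted p under 0.05. At that rate a count of 0 among 10 genes does not set them apart. The median SD of log2 CPM was 0.0859 over the 10 genes and 0.119 over all tested genes. Rnf128, at 0.587, was the 1 gene above the second median, at a percentile of 94.0. These medians were not matched for abundance, and the tested genes include many at low counts, where spread is wider. Of the 10 genes, all but Rnf128 averaged 15.5 to 569.2 CPM. Over all listed genes, described below, the median was 0.0907.

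**Figure D5:**
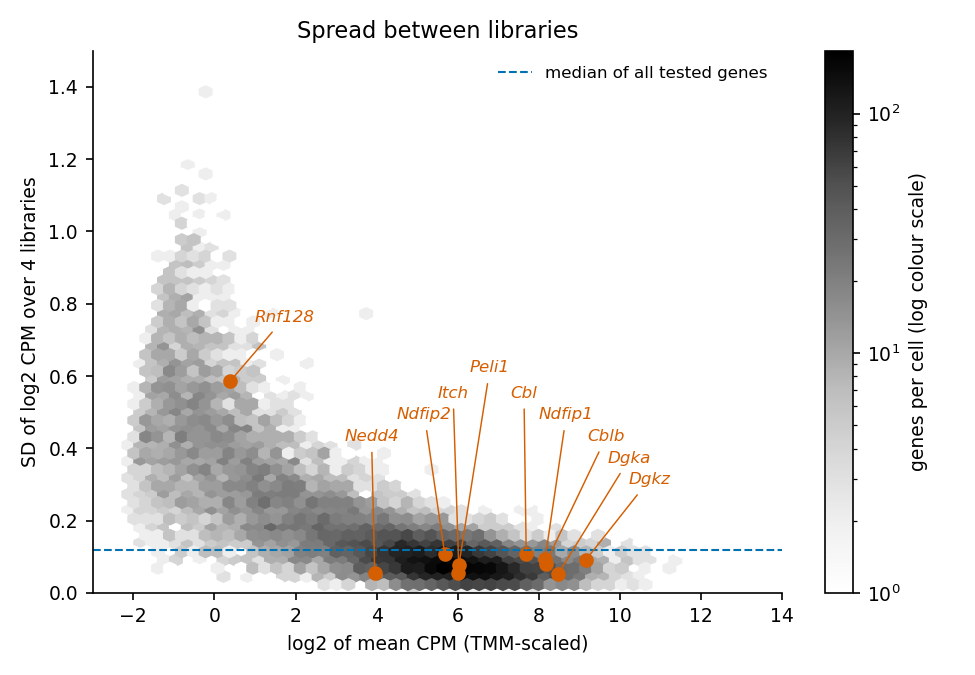
SD of log2 CPM over the 4 libraries against the log2 of mean TMM-scaled CPM, for 14269 tested genes in grey (darker for more genes) and the 10 genes in orange, with the median SD of all genes as a dashed line. Rnf128, at 0.587, lies far above the dashed line at 0.119 in the low-abundance range, where many grey genes are as wide, and the other 9 lie below that line.

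Replicate 1 had the lowest TPM of 6 of the 10 genes, namely Cbl, Cblb, Itch, Nedd4, Dgka and Dgkz. It also had the lowest TPM for 52.1% of protein-coding genes at a TPM of 1 or more in all libraries, and it had the smallest total count. Cbl, Cblb, Dgka and Dgkz, the Cbl ligases and the kinases among those 6 genes, and Rnf128, as the uneven ligase, are shown here by the 250 bases upstream of their most upstream RefSeq start (GRCm38.p6, 5′ to 3′ on the strand of the gene). Windows were found for 8 of the 10 genes, 13 windows in all, and which start these cells used was not measured. The 4 motifs searched, on both strands, are named for factors of T cell activation and quiescence, and capitals mark every match: GCGNGGGCG for EGR factors, GGAAA for the NFAT core, TGANTCA for AP-1 and GTAAACA for FOXO factors. The windows are chr9:44234047-44234296 (minus) for Cbl, chr16:52031299-52031548 (plus) for Cblb, chr10:128745085-128745334 (minus) for Dgka, chr2:91963564-91963813 (minus) for Dgkz and chrX:139610370-139610619 (plus) for Rnf128. Those of Dgkz and Rnf128 lie inside the deposited gene spans.
Cbl: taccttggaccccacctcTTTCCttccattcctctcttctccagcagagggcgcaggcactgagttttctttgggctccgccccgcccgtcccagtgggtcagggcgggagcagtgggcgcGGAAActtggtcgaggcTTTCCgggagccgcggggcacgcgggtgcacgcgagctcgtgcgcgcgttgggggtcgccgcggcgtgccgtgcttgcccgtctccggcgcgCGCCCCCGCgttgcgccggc
Cblb: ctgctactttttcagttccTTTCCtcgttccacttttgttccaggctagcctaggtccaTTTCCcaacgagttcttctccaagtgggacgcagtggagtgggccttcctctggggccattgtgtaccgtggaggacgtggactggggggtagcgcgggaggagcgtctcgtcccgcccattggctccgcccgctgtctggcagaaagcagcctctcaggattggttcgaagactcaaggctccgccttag
Dgka: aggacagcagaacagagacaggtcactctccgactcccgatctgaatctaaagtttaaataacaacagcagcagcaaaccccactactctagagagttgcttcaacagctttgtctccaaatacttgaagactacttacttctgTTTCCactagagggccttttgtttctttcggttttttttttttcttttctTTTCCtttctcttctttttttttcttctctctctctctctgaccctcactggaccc
Dgkz: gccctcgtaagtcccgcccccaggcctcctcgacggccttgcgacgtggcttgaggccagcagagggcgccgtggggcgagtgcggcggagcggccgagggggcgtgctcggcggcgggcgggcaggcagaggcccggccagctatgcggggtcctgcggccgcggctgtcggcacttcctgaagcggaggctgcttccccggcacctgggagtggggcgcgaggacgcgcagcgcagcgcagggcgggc
Rnf128: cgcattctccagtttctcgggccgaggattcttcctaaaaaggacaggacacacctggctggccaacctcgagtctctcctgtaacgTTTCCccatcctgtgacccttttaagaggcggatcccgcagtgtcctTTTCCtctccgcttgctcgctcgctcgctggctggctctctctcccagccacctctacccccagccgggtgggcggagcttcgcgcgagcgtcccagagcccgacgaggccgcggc

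The window of Cbl held 1 EGR match and 3 NFAT core matches, and no match overlapped another in the windows shown. Those of Cblb, Dgka and Rnf128 held 2 NFAT core matches each, and that of Dgkz held no match to any of the motifs. Of the windows not shown, the upstream one of Nedd4 held 1 EGR match, and its other window 1 AP-1 and 2 NFAT core matches. The downstream window of Dgkz held 1 NFAT core match. Windows 2, 3 and 4 of Dgka, counted from the most upstream, held 1, 0 and 2. The window of Ndfip2 held 2 NFAT core matches, and that of Peli1 held no match. The GC content of the windows shown ran from 41.2% for Dgka to 77.6% for Dgkz. The median over 32851 windows of the same length was 52.4%. The NFAT core occurred in 9 of the 13 windows of these genes and in 55.6% of all windows. The EGR motif occurred in 2 of the 13 and in 4.70% of all windows, AP-1 in 1 and in 6.75%, and FOXO in 0 and in 3.17%. Some of the 10 genes have several windows, of which windows 2 and 3 of Dgka share bases. A match is a run of letters rather than a measured binding site.

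The genes around the ligases and kinases were mostly expressed as well. Of 97 genes in 10 lists, which include the 10 genes themselves, 84 were at or above 1 TPM throughout, 6 had 0 counts throughout, and 0 of the 89 tested were called variable (edgeR, adjusted p under 0.05) or had an unadjusted p under 0.05, beside 66 (0.463%) and 812 of all 14269 genes tested. With the common dispersion, Peli3 (adjusted p = 0.00105 by edgeR) was called as well as Rnf128. The lists were chosen for known roles in T cells or by family, so these counts describe them and are no test against all genes.

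In the diacylglycerol signalling list, 12 of 15 genes were at or above 1 TPM throughout, and the median was 19.0 TPM. Prkch and Prkca, which encode protein kinase C eta and alpha, were highest at 160.9 ± 5.64 and 105.2 ± 6.75 TPM (SD, n = 4), and Prkd1 was at 0 counts. Genes on both sides of the kinases, named for their place in the pathway after their values were seen, were Plcg1, the phospholipase that makes diacylglycerol, at 72.9 ± 4.80 TPM, Rasgrp1 at 73.2 ± 4.95 TPM and Prkcq, protein kinase C theta, at 57.9 ± 2.20 TPM (SD, n = 4). All of these lay below the levels of Dgka and Dgkz.

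All 9 genes of the list of ubiquitin-conjugating enzymes and deubiquitinases were at or above 1 TPM throughout, and the median was 44.0 TPM. Otub1, a deubiquitinase, averaged 151.1 ± 6.59 TPM, and Ube2l3, a conjugating enzyme used by HECT ligases, 87.7 ± 4.40 TPM (SD, n = 4). All 14 other anergy genes reached that level too, with a median of 45.6 TPM. They were led by Nr4a1, an orphan nuclear receptor induced by antigen receptor signals, at 663.3 ± 39.8 TPM, and Ikzf1, which encodes Ikaros, at 279.4 ± 5.93 TPM (SD, n = 4). Egr2 and Egr3, transcription factors known to induce Cblb in anergic mouse T cells, averaged 51.0 ± 4.60 and 150.5 ± 14.6 TPM (SD, n = 4), Egr3 being named after its values were seen.

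All 17 genes of known ligase targets were at or above 1 TPM throughout, and the median was 101.6 TPM. Arhgdia, a target of GRAIL, was highest at 1493 ± 120 TPM, followed by Junb, the target of Itch, at 1220 ± 103 TPM (SD, n = 4). Targets of other ligases, named for that role after their values were seen, were Cd40lg (GRAIL) at 402.2 ± 11.3 TPM, Vav1 (Cbl-b) at 168.0 ± 11.0 TPM and Rel (Pellino 1) at 122.6 ± 4.95 TPM (SD, n = 4). Of other genes known as targets of Cbl-b and likewise named afterwards, Plcg1 and Prkcq, at the values given above, and Pik3r1, at 20.01 ± 1.23 TPM (SD, n = 4), were below Cblb at 145.8 TPM. Vav1 was above Cblb. So were Was and Zap70 of the same list, at 152.0 ± 7.36 and 555.3 ± 41.4 TPM (SD, n = 4), Zap70 being named after its values were seen.

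For each of the 10 genes, the listed gene most like it in level was the one with the smallest largest difference of log2(TPM + 0.1) over the 4 libraries. The closest pair was Peli1 with Tle4, a Groucho-type corepressor at 30.2 ± 0.541 TPM (SD, n = 4), which differed by at most 0.07 log2. Cblb was most like Was, which encodes the actin regulator WASP, at a largest difference of 0.14 log2, Dgkz most like Ikzf1 at 0.15, Itch most like Wwp1 at 0.16 and Cbl most like Egr2 at 0.19. Nedd4 and Rasgrp4 differed by at most 0.22 log2, as did Ndfip1 and Arhgdib, Ndfip2 and Smurf2 by at most 0.23, and Dgka and the receptor gene Lag3 by at most 0.30. Rnf128 had no close match: the nearest gene, Hecw2, differed from it by up to 0.86 log2 in 1 library.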

How the data were processed

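RNA sequencing of 4 libraries of 1 group was analysed. The authors deposited raw fragment counts for each gene, made with featureCounts 1.4.6-p4 on GENCODE M13 exons (mm10), reverse-stranded and with both ends mapped, per the file headers. STAR output was the input, per the file headers, without a version. The assay is labelled as total RNA, but the linked library protocol is named for polyadenylated RNA. Reads shared by genes were not counted, per the file headers, so copies and same-strand overlaps can lose counts.

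TPM was calculated from the deposited counts and exonic lengths. Symbols came from GENCODE M21, which matched 50376 of 50600 identifiers (99.6%). Spread between libraries was tested with edgeR 4.0.16 in R 4.3.3 (filterByExpr, TMM, intercept only, goodness of fit under the trended dispersion, Benjamini-Hochberg at 0.05). Genes were compared within libraries on log2(TPM + 0.1), which understates differences of low genes, by an exact sign-flip permutation test adjusted over 12 contrasts. DESeq2 1.42.0 size factors, other thresholds, CPM and leaving out each library were alternatives, and scaling by transcript length was added after seeing the data. That scaling kept the deposited counts, which were made over the exons of GENCODE M13. No pair of libraries agreed within sampling noise (chi-square per degree of freedom 28.8 to 83.7). Promoter windows were RefSeq's.

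The genes and lists were chosen with earlier results of these data known. Named genes are the 10 genes, those of the contrasts, the 2 most abundant others of each list and the most alike gene; other family genes appear for their share, and further exceptions are marked.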

Additional observations from a re-analysis of the deposited data

Results flagged for a closer look

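In 60 sets of 4 library values, 2 had a library far from the others by Dixon's test, where chance would give about 3 at 1 in 20. The level of Cblb was 128.3 TPM in replicate 1 and 150.6 to 153.2 TPM in the other 3 libraries. The level of Was, the gene most like Cblb, was 141.0 TPM in replicate 1 and 155.2 to 156.6 TPM in the others. Was had been picked for its likeness to Cblb over these same libraries, so its value is no separate support for that of Cblb. Replicate 1 had the smallest total count, 34978213, and the lowest TPM for 52.1% of protein-coding genes at a TPM of 1 or more in all libraries. Its part in either value was not tested.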

How the results depend on the processing

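No paired analysis was possible because the labels give 1 group, and replicate numbers pair nothing within it. None of the 12 contrasts changed direction with a pseudocount of 1, CPM, transcript lengths or any library left out. With 1 common dispersion, 1 of the 10 genes (Rnf128) and 955 genes in all were called variable. DESeq2 size factors, library totals, no filter, and GC and length offsets gave 65, 71, 75 and 72 calls in all, and leaving out each library gave 41 to 68, the lowest without replicate 1. At a TPM of 5, 5 Nedd4-type ligases passed. The Pellino count was 2 at a TPM of 0.5 and 1 to 2 with a library left out, the higher without replicate 4. Shares by CPM, which ignore length, were 54.9% for Cblb, 39.4% for Cbl, 23.5% for Itch, 5.61% for Nedd4, 63.7% for Ndfip1, 11.5% for Ndfip2, 96.7% for Peli1, 28.3% for Dgka and 45.4% for Dgkz. With transcript lengths they were 62.7% for Cblb, 26.3% for Cbl, 23.3% for Itch, 5.37% for Nedd4, 67.1% for Ndfip1, 8.56% for Ndfip2, 97.2% for Peli1 and 39.3% for Dgka. Levels with transcript lengths were 370.3 TPM for Ndfip1, 320.5 for Dgkz, 293.5 for Dgka, 101.2 for Cblb, 47.2 for Ndfip2, 42.5 for Cbl, 40.4 for Peli1, 28.7 for Itch and 6.59 for Nedd4. Scaled to protein-coding counts alone, they were 1054 TPM for Ndfip1, 257.4 for Dgka, 33.6 for Peli1, 23.1 for Itch, 15.3 for Ndfip2 and 4.87 for Nedd4. These shifts follow from the lengths and denominators used. RNA levels do not give protein or ligase activity, and 4 libraries allow no contrast to pass 0.05.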
